A study of Mus musculus with 6 samples.

Results

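The genes described here are Gclc, Gclm, Gss, Gsr, Slc7a11, Ggct and Chac2, which together make glutathione, keep it reduced, bring in the cystine it is built from and take it apart. They were chosen by gene symbol from the deposited expression table: all 7 symbols were found, each with 1 gene identifier, among 14005 identifiers. RNA was measured by polyA-selected sequencing in mouse macrophages cultured from bone marrow (BMDM), which are primary cells, in 2 groups of 3 libraries. The Txn1 KO macrophages carried the allele Txn1tm1.1Ees/J together with B6.129P2-Lyz2tm1(cre)lfo/J, an insertion of Cre recombinase into Lyz2, whose promoter drives it in myeloid cells. The controls were wild-type macrophages. Both groups were labelled with the strain background C57BL/6J, as primary cells, and as pooled male and female. Libraries with Cre but an intact Txn1 were not analysed here, so the Cre insertion and the Txn1 allele cannot be told apart in any comparison.

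Glutathione is the most abundant small thiol of animal cells. Glutamate-cysteine ligase, a catalytic subunit (Gclc) with a modifier subunit (Gclm) that raises its efficiency, joins glutamate to cysteine in the rate-limiting step, and glutathione synthetase (Gss) adds glycine. Cysteine enters macrophages largely as cystine through the antiporter xCT (Slc7a11), glutathione reductase (Gsr) returns oxidised glutathione to its reduced form at the cost of NADPH, and Chac2 and Ggct belong to the route that breaks glutathione and its gamma-glutamyl products down. Gclc, Gclm, Gsr and Slc7a11 are textbook targets of NRF2, which switches on the response to oxidative stress, and Slc7a11 is also a target of ATF4, the transcription factor of the amino acid starvation response. Thioredoxin-1, the product of Txn1, is the other main cytosolic carrier of reducing power.

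The promoters of the members are shown because NRF2 and ATF4 act through short DNA elements, which can be looked for in the letters. The RefSeq table (GRCm38.p6) held a window from 250 bases before to 50 bases after the start of 5 of the 7 genes: Gclm, Gss, Slc7a11, Ggct and Chac2. The letters searched, on both strands, were the core of the antioxidant response element that NRF2 binds (TGACNNNGC), a relaxed form of that core that includes it (TGANNNNGC), and the composite element that ATF4 binds (TGATGNAA). Capitals mark the matches. The windows are those of Gclm (chr3:122245307-122245606, plus strand), Slc7a11 (chr3:50443564-50443863, minus strand), Gss (chr2:155592761-155593060, minus strand) and Ggct (chr6:54992818-54993117, minus strand).
Gclm: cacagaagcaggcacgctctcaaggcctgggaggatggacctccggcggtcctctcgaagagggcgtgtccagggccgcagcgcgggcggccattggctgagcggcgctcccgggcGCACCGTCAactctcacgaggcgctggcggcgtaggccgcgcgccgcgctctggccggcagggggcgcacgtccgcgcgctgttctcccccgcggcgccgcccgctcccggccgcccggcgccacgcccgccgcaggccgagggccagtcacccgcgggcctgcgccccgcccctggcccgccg
Slc7a11: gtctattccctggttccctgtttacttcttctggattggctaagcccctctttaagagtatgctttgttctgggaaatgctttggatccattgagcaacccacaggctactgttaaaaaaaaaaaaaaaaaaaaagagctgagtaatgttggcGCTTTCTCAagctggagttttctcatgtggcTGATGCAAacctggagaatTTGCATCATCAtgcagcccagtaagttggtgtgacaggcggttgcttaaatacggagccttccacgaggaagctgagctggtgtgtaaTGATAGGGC
Gss: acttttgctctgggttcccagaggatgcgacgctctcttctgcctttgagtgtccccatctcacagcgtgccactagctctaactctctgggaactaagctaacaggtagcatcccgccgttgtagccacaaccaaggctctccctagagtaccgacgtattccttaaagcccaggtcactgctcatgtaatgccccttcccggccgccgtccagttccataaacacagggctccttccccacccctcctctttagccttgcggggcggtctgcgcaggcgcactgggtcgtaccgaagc
Ggct: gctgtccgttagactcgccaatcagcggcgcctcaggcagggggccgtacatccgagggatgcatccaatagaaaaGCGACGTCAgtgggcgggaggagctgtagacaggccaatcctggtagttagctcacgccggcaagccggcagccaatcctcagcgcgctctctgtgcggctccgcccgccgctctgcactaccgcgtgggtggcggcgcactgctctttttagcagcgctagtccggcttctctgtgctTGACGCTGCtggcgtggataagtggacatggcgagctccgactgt
The strict core was found once in the Gclm window, on the minus strand from 134 bases before the start, and in 2 places in the Ggct window. Slc7a11 had no strict core. It had 3 relaxed cores and 2 copies of the ATF4 element, which lie 66 and 47 bases before the start on opposite strands, and the second of these shares letters with a relaxed core. Neither Gss nor Chac2 held any of the letters searched. Among all 32851 windows of the same length in the table, 12.4% held the strict core, 41.3% the relaxed core and 3.97% the ATF4 element. A match is a description of the letters, and no match says only that these letters are not in these 300 bases. The windows of Gclm and Slc7a11 also differed in composition, with 79.7% and 44.7% G and C.

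Each library held between 22508616 and 38726953 reads in the listed genes. Txn1 itself had 12349 ± 367 normalized counts in Txn1 KO macrophages and 12580 ± 532 in wild type (SD, n = 3 each), a log2 change of -0.03 (limma adjusted p = 0.686); these values cover the whole gene, so they cannot show whether a part of it was deleted. Lyz2, which the Cre insertion interrupts, had 1775 to 4327 normalized counts in the Txn1 KO libraries against 361315 to 368284 in wild type, which follows the labels in all 6 libraries. All 7 macrophage markers were present in every library (Adgre1 at 16392 to 17344 normalized counts in Txn1 KO and 17008 to 18425 in wild type), but not at one level. Besides Lyz2, Fcgr1 (log2 -0.71, limma adjusted p = 1.16e-09) and Cd68 (-0.12, limma adjusted p = 0.0210) fell. Mertk (0.64) and Itgam (0.48) rose, and Adgre1 and Spi1 did not pass. The symbol Itgam has another identifier at a far lower level, which also rose (log2 1.68, limma adjusted p = 0.00589). It held 29.5 ± 8.08 normalized counts in Txn1 KO and 8.62 ± 3.26 in wild type (SD, n = 3 each). Cd68 did not pass with Txn1 KO replicate 1 left out (limma adjusted p = 0.0778), with wild-type replicate 1 left out (0.0774) or with both libraries that carry liver transcripts left out (0.105). Of 9 measured liver markers, 7 lay above the floor of 3 reads in only Txn1 KO replicate 3 and wild-type replicate 1, with Alb at 580.0 and 642.9 normalized counts. Results are therefore also given without these libraries. Of 10 stromal markers 6 were called lower in Txn1 KO macrophages and 4 were not called, where 9.97% of all tested genes were called lower. The sum of all 10 ran from 1221 to 2127 normalized counts in Txn1 KO against 2482 to 2824 in wild type. Of 6 tested neutrophil markers 1 was called higher and 2 lower, where 11.5% of all tested genes were called higher. Y-linked Eif2s3y was at 553.6 ± 21.5 normalized counts in Txn1 KO and 1086 ± 49.2 in wild type (SD, n = 3 each). The Y-linked genes Kdm5d (mean 100.8 in Txn1 KO and 233.0 in wild type), Uty (120.1 and 240.5) and Ddx3y (415.7 and 588.3) were lower too. The part of these differences in the results below was not tested, nor was whether the share of male cells differed between the groups. In bulk RNA fewer cells of a type and less RNA per cell cannot be told apart.

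Among the 7 members, the 5 of glutathione synthesis, reduction and cystine uptake were higher in Txn1 KO macrophages, at 2.09 to 2.94 times the wild-type mean. The breakdown members Chac2 and Ggct did not pass the test. All 7 members passed the filter on low values (a mean of at least 10 normalized counts). In limma's test across 13977 genes, 5 of the 7 rose at an adjusted p under 0.05 and 0 fell, where 21.5% of all tested genes were called, 11.5% upward and 9.97% downward. The same 5 also had a mean at least 2-fold higher. An adjusted p under 0.05 together with a mean at least 2-fold higher held for 1.56% of all tested genes. In 6 of the 7 the lowest Txn1 KO library lay above the highest wild-type library, against 18.5% of all tested genes in that direction and 36.2% in either. The median log2 change was 1.08 over the 7 members and -0.0049 over all tested genes. Whether the replicates are separate animals or cultures is not in the labels, and p-values cover only the spread between these libraries, which may be technical.

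**Figure D1:**
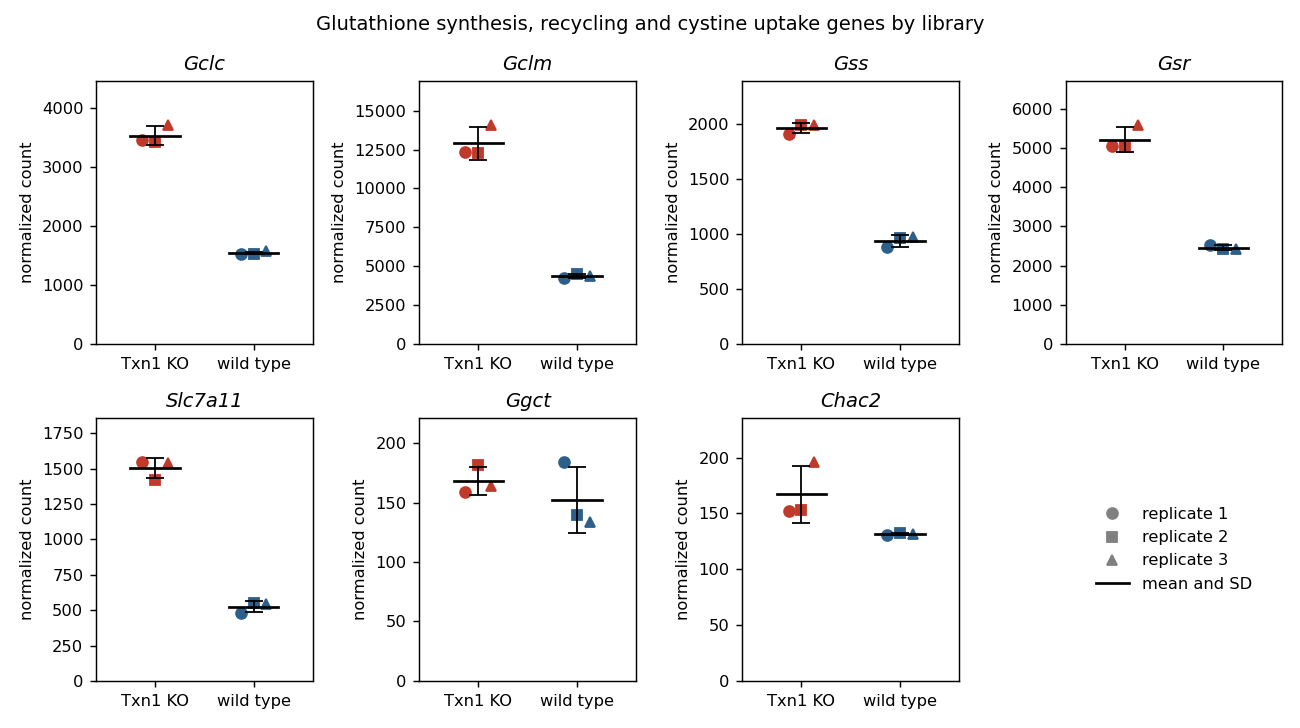
Normalized count (linear axes that start at 0) of the 7 genes in each library, Txn1 KO left of wild type, with the replicate number as the symbol, the mean as a bar and the SD as whiskers. For Gclc, Gclm, Gss, Gsr and Slc7a11 the 3 Txn1 KO libraries sit far above the 3 wild-type libraries, while for Ggct the groups overlap.

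Gclm, the modifier subunit of glutamate-cysteine ligase (ENSMUSG00000028124, chromosome 3, 122245557 to 122270732, plus strand, GRCm38), had the largest change of the 7, although without Txn1 KO replicate 3 Slc7a11 (log2 1.502) lay above it (1.489). Its Txn1 KO libraries held 12345, 12247 and 14081 normalized counts and its wild-type libraries 4222, 4532 and 4389. The lowest Txn1 KO library was 2.70 times the highest wild-type library, and the ratio of the means was 2.94 (log2 1.55 ± 0.047, SE, limma adjusted p = 6.29e-13). By size of log2 rise it stood at place 90 among the 13977 tested genes, and by p at place 4.

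Gclc, the catalytic subunit (ENSMUSG00000032350, chromosome 9, 77754535 to 77794485, plus strand), held 3459, 3425 and 3719.8 normalized counts in the Txn1 KO libraries and 1530.4, 1536 and 1573 in the wild-type libraries. The coefficient of variation of the wild-type libraries was 1.49%, the smallest of the 7 in that group after Chac2, and the groups were far apart. Gclc rose 2.29-fold (log2 1.19 ± 0.043, limma adjusted p = 3.51e-12). The 95% intervals of the log2 changes, 1.10 to 1.28 for Gclc and 1.45 to 1.65 for Gclm, did not overlap.

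Since both subunits form the same enzyme, the ratio of their normalized counts was also compared, in which gene length cancels between libraries. Gclm over Gclc was 3.57, 3.58 and 3.79 in the Txn1 KO libraries against 2.76, 2.95 and 2.79 in the wild-type libraries. The groups did not overlap, and the mean ratio in Txn1 KO macrophages was 129% of that in wild type (log2 difference 0.36, exact permutation test, two-sided, p = 0.10, which is the smallest p that 3 against 3 libraries can give). The difference kept its sign with each library left out (0.33 to 0.39). It was 0.32 without both libraries with liver transcripts (exact permutation test, p = 0.33), where fewer libraries make the smallest possible p larger.

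Gss, which encodes glutathione synthetase for the second step (ENSMUSG00000027610, chromosome 2, 155563181 to 155592810, minus strand), held 1913, 1994 and 1990.4 normalized counts in Txn1 KO macrophages against 879.3, 964.4 and 975.1 in wild type. It rose 2.09-fold (log2 1.07 ± 0.052, limma adjusted p = 1.12e-10), and its Txn1 KO libraries varied by only 2.34% of their mean. Gss shares exon sequence with the genes on the other strand: 395 bases with Acss2, which makes acetyl-CoA from acetate, and 385 and 322 bases with the antisense transcripts Gssos2 and Gssos1. Acss2, looked at because of that overlap, held 1405, 1432 and 1452 normalized counts in Txn1 KO libraries against 653.1, 751.5 and 763.8 in wild type, a 1.98-fold rise (log2 0.99 ± 0.061, limma adjusted p = 2.84e-09). How the counting used strand is not stated in the labels or the table, so reads of the shared stretch cannot be assigned to either gene, and both values are uncertain to that extent.

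Gsr, glutathione reductase (ENSMUSG00000031584, chromosome 8, 33652523 to 33698163, plus strand), held 5042, 5016 and 5589 normalized counts in the Txn1 KO libraries and 2538, 2422 and 2414 in the wild-type libraries. It rose 2.12-fold (log2 1.08 ± 0.045, limma adjusted p = 1.69e-11). Its 95% interval of 0.99 to 1.18 overlapped that of Gss (0.96 to 1.17), and whether the changes of these genes differ was not tested.

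Slc7a11, the cystine transporter xCT (ENSMUSG00000027737, chromosome 3, 49892526 to 50443614, minus strand), held 1549.9, 1422 and 1542 normalized counts in Txn1 KO macrophages against 479.9, 551.0 and 542.5 in wild type. Its 2.87-fold rise (log2 1.52 ± 0.064, limma adjusted p = 2.15e-11) was close to that of Gclm, with a 95% interval of 1.39 to 1.66. Its promoter window is the one with 2 matches to the ATF4 letters shown above. The heavy chain that xCT needs at the cell surface, Slc3a2, rose by less (log2 0.42, limma adjusted p = 8.50e-08), with 16823 ± 223 normalized counts in Txn1 KO and 12619 ± 440.3 in wild type (SD, n = 3 each).

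Chac2, a cytosolic enzyme that cleaves glutathione at a slow, steady rate (ENSMUSG00000020309, chromosome 11, 30976707 to 30986350, minus strand), was counted at a far lower depth, 128 to 171 reads a library. Its values were 151.9, 153.1 and 196.5 normalized counts in Txn1 KO libraries against 130.4, 132.9 and 131.6 in wild type. The groups did not overlap, but the log2 difference of 0.33 did not pass the test (95% interval 0.05 to 0.61, limma adjusted p = 0.0868). The high value is that of Txn1 KO replicate 3, which carries liver transcripts, while wild-type replicate 1, which carries them too, had the lowest value (130.4). The log2 difference was 0.20 when both libraries that carry them were left out (limma adjusted p = 0.413). The part of liver transcripts in these values was not tested. The authors' deposited table gives an adjusted p of 0.152.

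Ggct, gamma-glutamylcyclotransferase (ENSMUSG00000002797, chromosome 6, 54982580 to 54992950, minus strand), had 158.8, 181.8 and 164.2 normalized counts in Txn1 KO libraries and 184.4, 139.1 and 133.3 in wild type. The groups overlapped, since wild-type replicate 1, a library with liver transcripts, was the highest of the 6. Txn1 KO replicate 3, the other such library, lay between the other Txn1 KO libraries (164.2). On the log2 scale the groups differed by 0.16 (95% interval -0.13 to 0.45, limma adjusted p = 0.481). Leaving out both libraries that carry liver transcripts gave 0.32 (limma adjusted p = 0.155). At its lowest depth of 122 reads, counting error alone amounts to 9.05%. The upper end of the interval for Ggct lies below the lower ends for the 5 genes that rose, the lowest of which is 0.96. The promoter window of Ggct printed above has 2 matches to the letters of the strict core, which 12.4% of all 32851 windows hold. Whether NRF2 binds at these matches was not tested.

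**Figure D2:**
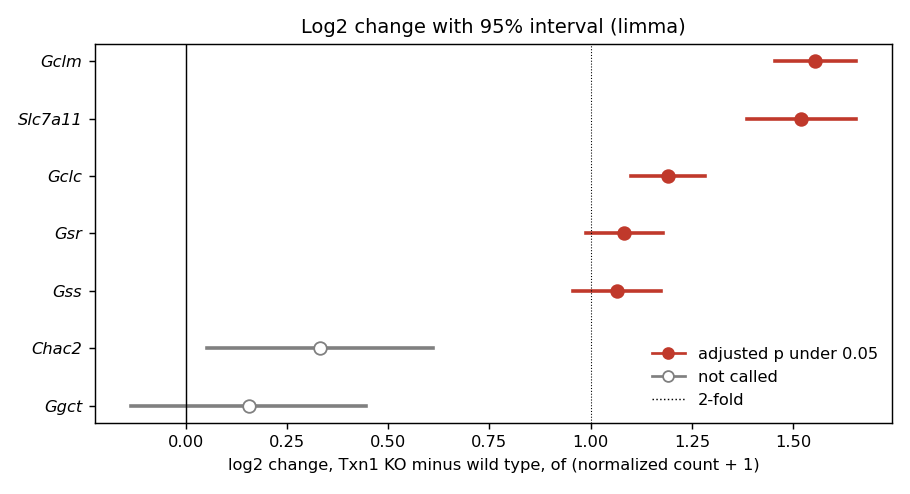
Log2 change of each gene (horizontal axis, Txn1 KO minus wild type) with its 95% interval from limma; filled red points passed at an adjusted p under 0.05, open grey points did not, and the dotted line marks 2-fold. Gclm and Slc7a11 lie near 1.5, Gclc at 1.19, Gsr and Gss near the line, and Chac2 and Ggct to the left of it with wide intervals.

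The 5 calls held under all 19 alternatives tried, including each library left out, and without both libraries with liver transcripts the log2 changes of the 5 ran from 1.01 for Gss to 1.46 for Gclm. Txn1 KO replicate 3 was the highest Txn1 KO library for 4 of the 7 genes (Gclc, Gclm, Gsr and Chac2), and for Gclm the spread among the Txn1 KO libraries (8.0% of the mean) exceeded that in wild type (3.54%).

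Levels can be set beside each other only per length. In normalized counts per kilobase of annotated exon, Txn1 KO macrophages had Gclm at 2049 ± 164, Gsr at 1894 ± 118, Gclc at 938.6 ± 42.8, Gss at 332 ± 7.77, Chac2 at 127 ± 19.3, Slc7a11 at 108 ± 5.16 and Ggct at 21.7 ± 1.55 (SD, n = 3). In wild type the order of the upper pair was turned, with Gsr at 892.6 ± 25.2, Gclm at 696.4 ± 24.6, Gclc at 410.7 ± 6.12, Gss at 159 ± 8.87, Chac2 at 100.1 ± 0.936, Slc7a11 at 37.7 ± 2.79 and Ggct at 19.7 ± 3.61. Gclm and Gsr overlapped in the Txn1 KO libraries and did not in wild type; all other neighbours in the order were separate in both groups. The order depends on the annotated length: per kilobase of the longest coding transcript, Gss came to 1001 in Txn1 KO and 478.7 in wild type, beside Gclc at 1033 and 451.8, and Slc7a11 (163) passed Chac2 (127) in Txn1 KO.

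**Figure D3:**
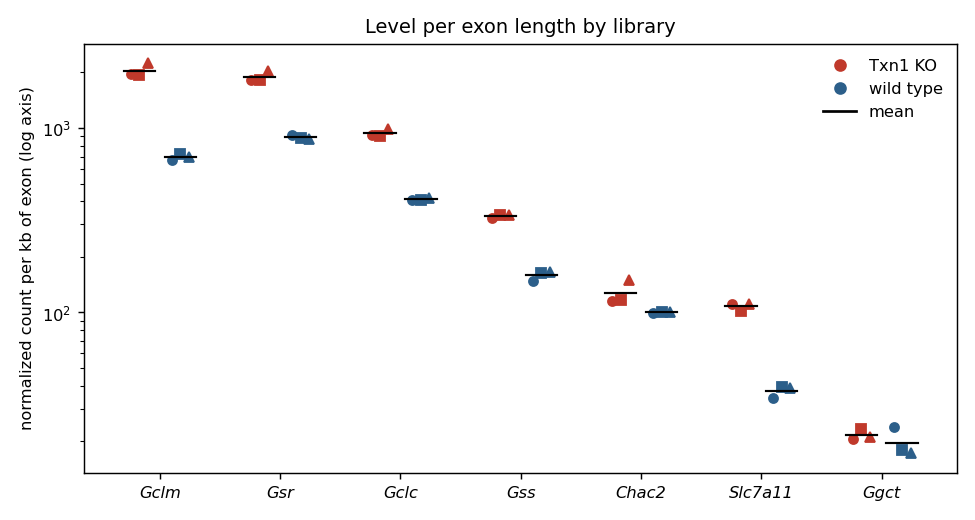
Normalized count per kilobase of annotated exon on a log axis for each library, Txn1 KO (red) left of wild type (blue), with the mean as a bar, for the 7 genes in order of their Txn1 KO level. Gclm (2049) and Gsr (1894) lead in Txn1 KO, and Ggct is lowest in both groups.

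The annotated exons of Gclm include a stretch of 287 bases that is 97.9% identical to Ppia, the abundant cyclophilin A gene, and transcripts of Slc7a11 include one of 585 bases that is 92.5% identical to Tuba1b, an alpha-tubulin gene, so reads from there may be shared or dropped. Ppia fell (17571 ± 197 normalized counts in Txn1 KO and 20359 ± 765 in wild type, SD, n = 3 each; log2 -0.21, limma adjusted p = 0.000176), and Tuba1b rose (8099 ± 43.3 in Txn1 KO and 7082 ± 168 in wild type; log2 0.19, limma adjusted p = 0.000340). The part of shared reads in the values of Gclm and Slc7a11 was not tested. At 100 bases or more and 90% identity, Gclm had such stretches with 125 other genes, Slc7a11 with 36, and Gss with its 3 overlapping neighbours. Among the 125 is Gm6061, a transcribed pseudogene that shares 244 exon bases with Gclm on the same strand, so reads from there may also be shared or dropped. None was found for Gclc, Gsr, Ggct or Chac2.

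None of the 7 genes lies on chromosome 4 or 10, which hold Txn1 and Lyz2. Of the 14 nearest tested genes on either side of the members, 5 rose and 0 fell, beside 11.5% and 9.97% of all tested genes; among them are Acss2 and Gm17494, a transcript that shares 296 exon bases with Gclm on the other strand (59.8 ± 17.1 normalized counts in Txn1 KO and 25.1 ± 9.19 in wild type, log2 1.25, limma adjusted p = 0.00556). The genes on both sides of Gclc, Ggct and Chac2 did not pass the test.

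By the root-mean-square difference of log2 profiles over the 6 libraries, centred on the wild-type mean, among 11131 other genes with a mean of at least 50, the profile most like Gclc was that of Pla2g7 (0.029), followed by Ampd3 (0.049). Gclm was nearest to the iron exporter gene Slc40a1 (0.066) and then to Slc7a11 (0.072). Gsr was nearest to Cat, which encodes catalase (0.031), and then to Ttc12 (0.047). Wdfy1 (0.043) and Ttc12 (0.047) were nearest to Gss, and Gdf3 (0.051) and Slc40a1 (0.063) to Slc7a11. Ggct was nearest to 4930589L23Rik (0.045) and Tst (0.069), and Chac2 to Igf1r (0.050) and Arrdc4 (0.055). Likeness in 6 libraries of 2 groups rests mostly on the size of the group difference.

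The other genes of the pathway are given by role, beside the 11.5% of all tested genes called higher and the 9.97% called lower. Among genes that supply cysteine, glutamate and glycine, 1 of 10 tested rose, near the share of all tested genes, and 3 fell (median log2 -0.05): Slc3a2 was the rise, and Ahcy, of the methionine cycle (-0.52), Glud1, glutamate dehydrogenase (-0.14), and Shmt2, of glycine synthesis (-0.17, limma adjusted p = 0.0405), were the falls. The call of Shmt2 was lost under 8 of 17 alternatives, with limma adjusted p = 0.160 without Txn1 KO replicate 1 and 0.0636 without both libraries with liver transcripts. Of the glutathione carriers 5 of 9 rose and 1 fell (median 0.27). All 5 rises were ABC transporters of the plasma membrane. Those with the smallest p were Abcc1, which exports glutathione and its conjugates (log2 0.79, limma adjusted p = 2.57e-09), Abcc5 (0.42) and Abcc3 (0.27). Abcc2 had the largest rise of the list (log2 1.58, limma adjusted p = 0.000412). Its depth was low, with 50.8 ± 6.80 normalized counts in Txn1 KO and 16.3 ± 2.00 in wild type (SD, n = 3 each). Abcc4 rose by 0.35 (log2). Slc25a39, the mitochondrial importer, fell by 0.14 (log2).

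In the breakdown and salvage list 3 of 10 rose and 2 fell (median 0.14). Ggt5, a cell surface gamma-glutamyl enzyme, rose to 76.7 ± 12.3 normalized counts in Txn1 KO, against 18.0 ± 2.70 in wild type (SD, n = 3 each; limma adjusted p = 1.19e-05), and the peptidases Dpep2 and Anpep, which act outside the cell, fell by 0.23 and 0.21 (log2). The other 2 rises, Chac1 (0.57, limma adjusted p = 0.0409) and Oplah (0.46, limma adjusted p = 0.0477), were lost under most alternatives; with both liver-bearing libraries left out Chac1 was at 0.40 (limma adjusted p = 0.248) and Oplah at 0.48 (limma adjusted p = 0.0882). Chac1 is the stress-induced relative of Chac2 and an ATF4 target.

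Among enzymes listed as spending glutathione, 2 of 6 peroxidases rose and 0 fell (median 0.05), Prdx6 by 1.29 and Gpx3 by 0.82. Gpx4, Gpx7 and Gpx8 did not pass. The means of Gpx7 and Gpx8 were low, 21.4 and 12.8 normalized counts in Txn1 KO and 21.4 and 13.7 in wild type. Whether each listed enzyme uses glutathione was not tested. Gpx1 narrowly missed (log2 0.11, limma adjusted p = 0.0509) and was called under 6 of 17 alternatives, among them without wild-type replicate 1 (limma adjusted p = 0.0154), without Txn1 KO replicate 2 (0.0478) and without both libraries with liver transcripts (0.00434). Of 16 transferases 7 rose and 0 fell (median 0.10), led by Gsta3 (2.37), Mgst2 (1.66) and Gstp1 (0.92). Of 8 glutaredoxins and other enzymes with glutathione as cofactor 1 rose, Esd (0.56), and 0 fell (median 0.01), a share near that of all tested genes. Of 13 genes that supply NADPH, which Gsr consumes, 6 rose and 1 fell (median 0.10), with Pgd at 0.64, Taldo1 at 0.73 and Me1 at 0.87.

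**Figure D4:**
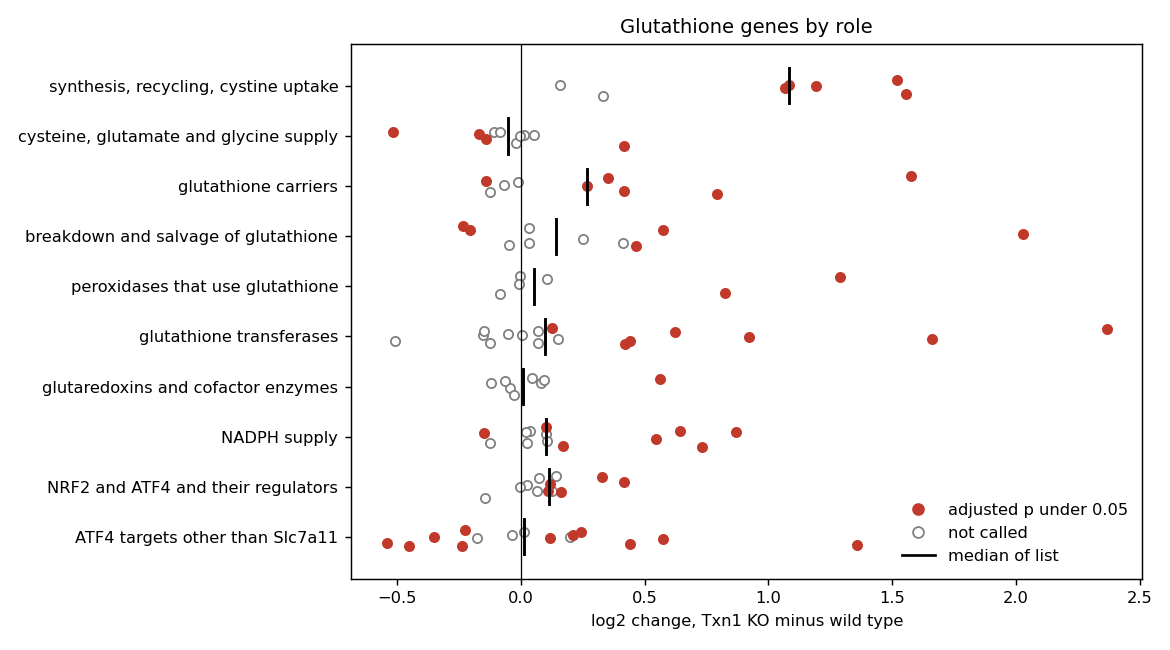
Log2 change (Txn1 KO minus wild type, horizontal axis) of each tested gene in 10 lists by role; filled red points passed at an adjusted p under 0.05, open grey points did not, and the bar is the median of the list. The median of the synthesis, recycling and cystine uptake genes is 1.08, and those of the other lists lie between -0.05 and 0.27.

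Of 12 genes for NRF2, ATF4 and their regulators, 5 rose and 0 fell (median 0.11). With wild-type replicate 3 or Txn1 KO replicate 1 left out, 3 were called, all higher. Without Txn1 KO replicate 2, 2 were called higher and 1 lower, and without wild-type replicate 1, 3 higher and 1 lower. Without both libraries with liver transcripts 5 were higher and 1 lower, and with upper-quartile scaling 4 higher and 1 lower. Maff, a small Maf partner of NRF2 on DNA, had the largest rise (log2 0.42, limma adjusted p = 0.0166), and it was lost without wild-type replicate 1 (0.0520), Txn1 KO replicate 1 (0.0753) or Txn1 KO replicate 2 (0.0699). Mafg, another such partner, rose by 0.33 (limma adjusted p = 6.64e-05), Bach1, a repressor at the same elements, by 0.16 and Nfe2l2, which encodes NRF2, by 0.12 (limma adjusted p = 0.0149; 0.0841 without wild-type replicate 3). The rise of Bach1 was lost without Txn1 KO replicate 2 (limma adjusted p = 0.0536). Mafk, the remaining small Maf partner in the list, went the other way and did not pass (log2 -0.14, 95% interval -0.26 to -0.03, limma adjusted p = 0.0665). Atf4 differed by 0.06 on the log2 scale (limma adjusted p = 0.243). Of 15 ATF4 targets other than Slc7a11, 6 rose and 5 fell (median 0.01), and the 11 calls came to 5 without wild-type replicate 2, 6 without Txn1 KO replicate 1 and 7 without Txn1 KO replicate 2. The falls with the smallest p were Ddit3, the stress factor CHOP (-0.45), Phgdh, of serine synthesis (-0.54), and Pck2 (-0.23, lost without Txn1 KO replicate 1, limma adjusted p = 0.0604). The other falls were Asns (-0.24, limma adjusted p = 0.0136) and Nupr1 (-0.35, 0.0190). Among the rises were Ddit4 (0.44, limma adjusted p = 0.0205), Sesn2 (0.24, 0.0253), Atf5 (0.21, 0.0101) and Atf3 (0.12, 0.0162), beside Chac1, given above. Apart from Chac1, these other falls and rises were not followed singly under the alternatives. Vldlr had the largest rise of the 15 (log2 1.36, 95% interval 0.42 to 2.29, limma adjusted p = 0.0366), an interval that holds the 1.52 of Slc7a11, at a low depth of 23.4 ± 10.9 normalized counts in Txn1 KO and 8.28 ± 3.03 in wild type (SD, n = 3 each). Its call was lost under 5 of 16 alternatives, with limma adjusted p = 0.101 without wild-type replicate 1, 0.0939 without wild-type replicate 2, 0.201 without Txn1 KO replicate 1 and 0.0604 without Txn1 KO replicate 2.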

How the data were processed

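The deposited table gives, for 14005 mouse genes, a value in each of 6 libraries, and the log2 fold change, p-value and adjusted p-value that the authors computed. The labels' protocols give the NEBNext Ultra II RNA kit after polyA selection and ERCC spike-ins; 0 ERCC rows are listed. The submitters' processing notes name bcl2fastq 2.20, Trimmomatic 0.36, STAR 2.5.2b, DESeq2 and GRCm38 (mm10). The sources used here name no read counter, strand setting or gene annotation. The deposited signal is a read count that the authors divided by 1 size factor per library: 100% of values are whole multiples of the library's step (0.777 to 1.35) at a tolerance of 0.01 reads. Floors and counting errors in percent cover counting error only; the 95% intervals are limma's and cover the spread between libraries. The columns named BMDM with a number, but without Txn1KO, were assigned to the wild-type samples of that number.

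The main test was limma 3.58.1 (R 4.3.3), on log2(normalized count + 1) and with its prior variance as a trend, over genes with a mean of at least 10, with Benjamini-Hochberg adjustment over all 13977, two-sided; this scale understates changes of low genes. Fold changes are ratios of mean normalized counts. The design foresaw edgeR for raw counts; edgeR 4.0.16 and DESeq2 1.42.0 were run on the recovered reads as alternatives, and edgeR called 2969 genes. Scripts were tested on simulated data. Positions and exon lengths come from GENCODE M21 (GRCm38), promoters from RefSeq. Members and lists were chosen with earlier results of these data known. Named are the members, Txn1, Lyz2, Alb, the 2 nearest profiles of each member, and up to 3 called genes with the smallest p of each other list. Shmt2, Slc25a39, Maff, Chac1, Oplah, Vldlr, Atf4, the other called ATF4 targets and the peroxidases not called were named after their values were seen. So were Mafk, Abcc2, Abcc4, the Y-linked genes, the macrophage genes and the genes that neighbour or resemble a member. Same-numbered libraries did not deviate together (r -0.28 to -0.02), so the numbers were not used to pair them. The highest r across the groups was 0.34, between Txn1 KO replicate 3 and wild-type replicate 1, the libraries with liver transcripts. The part of liver transcripts in this r was not tested.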

Additional observations from a re-analysis of the deposited data

How the results depend on the processing

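The count of 5 members called, all higher, was the same under each of 19 alternatives: other pseudocounts, filters, scalings, tools and thresholds, each library left out, both libraries with liver transcripts left out, and the replicate block. With the replicate block, for which no pairing was found, 2675 of all genes were called, against 3001 without it; leaving out a library gave 2087 to 2816. Each of the 7 members kept its direction and its side of the threshold under all 17 alternatives to its log2 change; Ggct ranged from 0.07 to 0.32 and Chac2 from 0.20 to 0.40. Txn1 ranged from -0.051 to 0.0075 with a library left out; it turned positive without wild-type replicate 1 (0.0075) and without both libraries with liver transcripts (0.0050).

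The list of breakdown and salvage, with 5 called genes, had 2 with a mean of at least 100 required, 3 with the replicate block, 3 without both libraries with liver transcripts, 3 with edgeR, 3 with DESeq2 and 3 by the authors' deposited statistics, and 3 to 4 with a library left out. The calls lost were those of Chac1 and Oplah, apart from genes under the stricter filter. The list of cofactor enzymes had 2 called, against 1, without both libraries with liver transcripts. With a library left out, the regulators had 3 to 5 called, against 5, and the ATF4 targets 5 to 10, against 11; the cause was not tested. The other lists stayed within 1.5 times their count. Of 41 other genes followed in the same way, calls were lost in 44 of 692 values, gained in 6 (Gpx1), and 0 turned direction. These leave out Itgam, Adgre1, Spi1, Alb, Gpx4, Gpx7, Gpx8, Gm6061 and the genes with like profiles. They also leave out Asns, Nupr1, Ddit4, Sesn2, Atf5, Atf3, Mafk, Abcc2, Abcc4, Kdm5d, Uty and Ddx3y. The depth limits Ggct and Chac2, with at most 190 and 171 reads a library.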
